A study of Rattus norvegicus with 15 samples.

Results

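Cdkn1a and 8 other genes that p53 switches on (Gadd45a, Mdm2, Ccng1, Bbc3, Fas, Eda2r, Tp53inp1 and Sesn1) were followed in RNA sequencing of rat multifidus, the deep paraspinal muscle beside the spine. The 9 genes were found by symbol among the 37991 genes of the deposited table. Of these, 8 matched the listed symbol exactly, and Trp53inp1 is listed there as Tp53inp1. The set was chosen by taking known p53 targets, after the measured fold changes and adjusted p-values of Cdkn1a and Fas in pMT against Surgery had been seen, so that comparison is described without a test. For the same reason Cdkn1a and Fas carry no p-value in any comparison that uses Surgery or pMT libraries. All 9 genes passed the filter on low counts, so none is left out of what follows.

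The rats were wild type male Sprague Dawley animals aged 12 weeks, and the 15 libraries fall into 5 groups. Control rats (2 libraries) had no injury, whereas the Surgery rats (2 libraries) were operated on and left untreated. The operation was a hemilaminectomy with ligation of the left L5 spinal nerve, so that the muscle was both injured and denervated. After the same surgery, pMT rats (4 libraries) were injected with mitochondria isolated from human plasma, 25 µg in 100 µL at each of 2 sites of the left paraspinal muscle. VitD rats (3 libraries) received cholecalciferol, 150 µg per site, and pMT/VitD rats (4 libraries) received both agents at these doses. The pMT injections came 2 weeks after surgery and the muscle of the Surgery and pMT groups was taken 2 weeks after that, while the days of the VitD injections are not given in the sources used here. None of the groups was injected with buffer alone. The labels do not say that each library came from its own rat, so p-values measure only the spread between these libraries.

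The protein p53 is a transcription factor that is stabilised by DNA damage, oncogene activity, loss of metabolic support and other stress. Its targets fall into arms with different outcomes. Cdkn1a encodes p21, an inhibitor of cyclin-dependent kinases that stops the cell cycle, and Gadd45a belongs to a family of stress sensors acting in arrest and DNA repair. Mdm2 is the ubiquitin ligase that degrades p53, and Ccng1 (cyclin G1) also feeds back on the Mdm2 loop. Bbc3 encodes PUMA, a BH3-only protein that starts mitochondrial apoptosis, while Fas and Eda2r encode receptors of the tumour necrosis factor receptor family. Tp53inp1 acts in p53-dependent stress responses and autophagy, and Sesn1 (sestrin 1) restrains mTORC1 under stress. In skeletal muscle, Cdkn1a and Gadd45a are also known to rise after denervation and disuse, and Cdkn1a also marks the exit of myoblasts from the cell cycle. EDA2R has been linked to muscle wasting.

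Promoter sequences of 7 of the 9 genes were present in the RefSeq table used (build GRCr8, whereas the reads had been aligned to rn6), each as the 250 bases before the annotated start. The promoters were searched on both strands for the p53 half-site, the motif that p53 recognises as a tandem pair. The 4 promoters that hold a match are shown because 2 of them belong to members that passed the tests below (Cdkn1a and Gadd45a) and 2 to members that did not (Ccng1 and Sesn1), and capitals mark the half-site.
Cdkn1a (chr20:7150682-7150931, plus strand): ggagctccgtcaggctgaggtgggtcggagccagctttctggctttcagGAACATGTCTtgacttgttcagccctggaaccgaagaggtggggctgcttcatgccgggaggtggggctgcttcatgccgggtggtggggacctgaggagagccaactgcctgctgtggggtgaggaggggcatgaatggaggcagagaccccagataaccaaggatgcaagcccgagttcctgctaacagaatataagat
Gadd45a (chr4:97486800-97487049, minus strand): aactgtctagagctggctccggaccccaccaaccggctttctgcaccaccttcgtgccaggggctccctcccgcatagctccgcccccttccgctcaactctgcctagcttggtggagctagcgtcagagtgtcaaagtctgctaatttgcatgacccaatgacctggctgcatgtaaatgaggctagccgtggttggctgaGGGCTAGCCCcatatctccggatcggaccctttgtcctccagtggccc
Ccng1 (chr10:25684877-25685126, minus strand): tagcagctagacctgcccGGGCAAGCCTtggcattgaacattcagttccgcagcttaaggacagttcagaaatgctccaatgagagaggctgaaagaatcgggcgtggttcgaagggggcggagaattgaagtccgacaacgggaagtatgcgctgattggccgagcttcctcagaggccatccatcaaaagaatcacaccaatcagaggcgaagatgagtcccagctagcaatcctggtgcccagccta
Sesn1 (chr20:46948469-46948718, plus strand): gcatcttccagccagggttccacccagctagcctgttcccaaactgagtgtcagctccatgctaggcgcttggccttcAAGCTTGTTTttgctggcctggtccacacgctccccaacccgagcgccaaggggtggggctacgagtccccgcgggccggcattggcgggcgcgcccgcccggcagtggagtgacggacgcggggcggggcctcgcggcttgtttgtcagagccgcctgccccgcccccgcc
The half-site began 201 bases before the start in Cdkn1a, 48 bases before it in Gadd45a, 232 in Ccng1 and 172 in Sesn1. In Cdkn1a the half-site and the bases directly after it, GAACATGTCTTGACTTGTTC, differed from the full p53 site, a tandem pair of half-sites, at 1 base. Such a full site was found in 10 of 33469 promoters (0.0299%), and among the members only in Cdkn1a. A half-site alone occurred in 6.64% of all promoters of this length, and no match was found in the windows of Mdm2, Fas and Eda2r. Eda2r was the one member with the TATA box letters TATAAA, which 12.9% of promoters held. These matches are descriptions of letters in a window and say nothing about whether p53 was bound there.

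Levels were compared between genes as deposited TPM, which corrects for transcript length. Ccng1 was by far the most abundant member, with a mean of 529 TPM over the 15 libraries. Sesn1 (32.5 TPM), Gadd45a (25.9 TPM), Mdm2 (21.1 TPM) and Cdkn1a (20.9 TPM) formed a middle tier. Tp53inp1 (4.09 TPM), Eda2r (2.07 TPM), Fas (1.92 TPM) and Bbc3 (1.20 TPM) were scarce, and Bbc3 rested on 32 to 201 reads per library. The genes differed as much in how far they moved. The highest library exceeded the lowest 14.3-fold for Cdkn1a and 13.0-fold for Eda2r, but only 1.51-fold for Ccng1 and 1.23-fold for Mdm2, in CPM. CPM is a gene's share of the library total after scaling by the trimmed mean of M values. It is used for all comparisons of single genes between libraries from here on, while summed marker lists are in deposited TPM. In bulk muscle, fewer cells of a type and less RNA per cell cannot be told apart.

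Library totals ran from 52342100 to 73557900 counts. The muscle fibre markers Acta1, Mylpf and Ckm averaged 51656, 47500.3 and 25532 TPM, so the tissue carried its defining transcripts. Several libraries stood apart from their groups. The library pMT 4 had 22.6% of its counts in the 13 mitochondrially encoded genes, against 11.1 to 12.9% in the other pMT libraries. The distance between 2 libraries was the SD, over 3129 abundant genes, of their difference in log2 CPM. Values given are the median distance of a library to the libraries of a group. By this measure pMT 4 was closer to the pMT/VitD libraries (0.287) than to its own group (0.447). The library pMT/VitD 4 showed the reverse, with 0.246 to pMT and 0.461 to its own group. An exchange of these 2 labels is possible and was not tested, and every pMT and pMT/VitD group value below keeps the labels as given. VitD 1 differed from the other VitD libraries by 0.463, and VitD 2 was almost as close to the Surgery libraries (0.0948) as these were to each other (0.0636). Results that rest on VitD 1 or on the replicate 4 libraries are therefore also given without them.

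**Figure D1:**
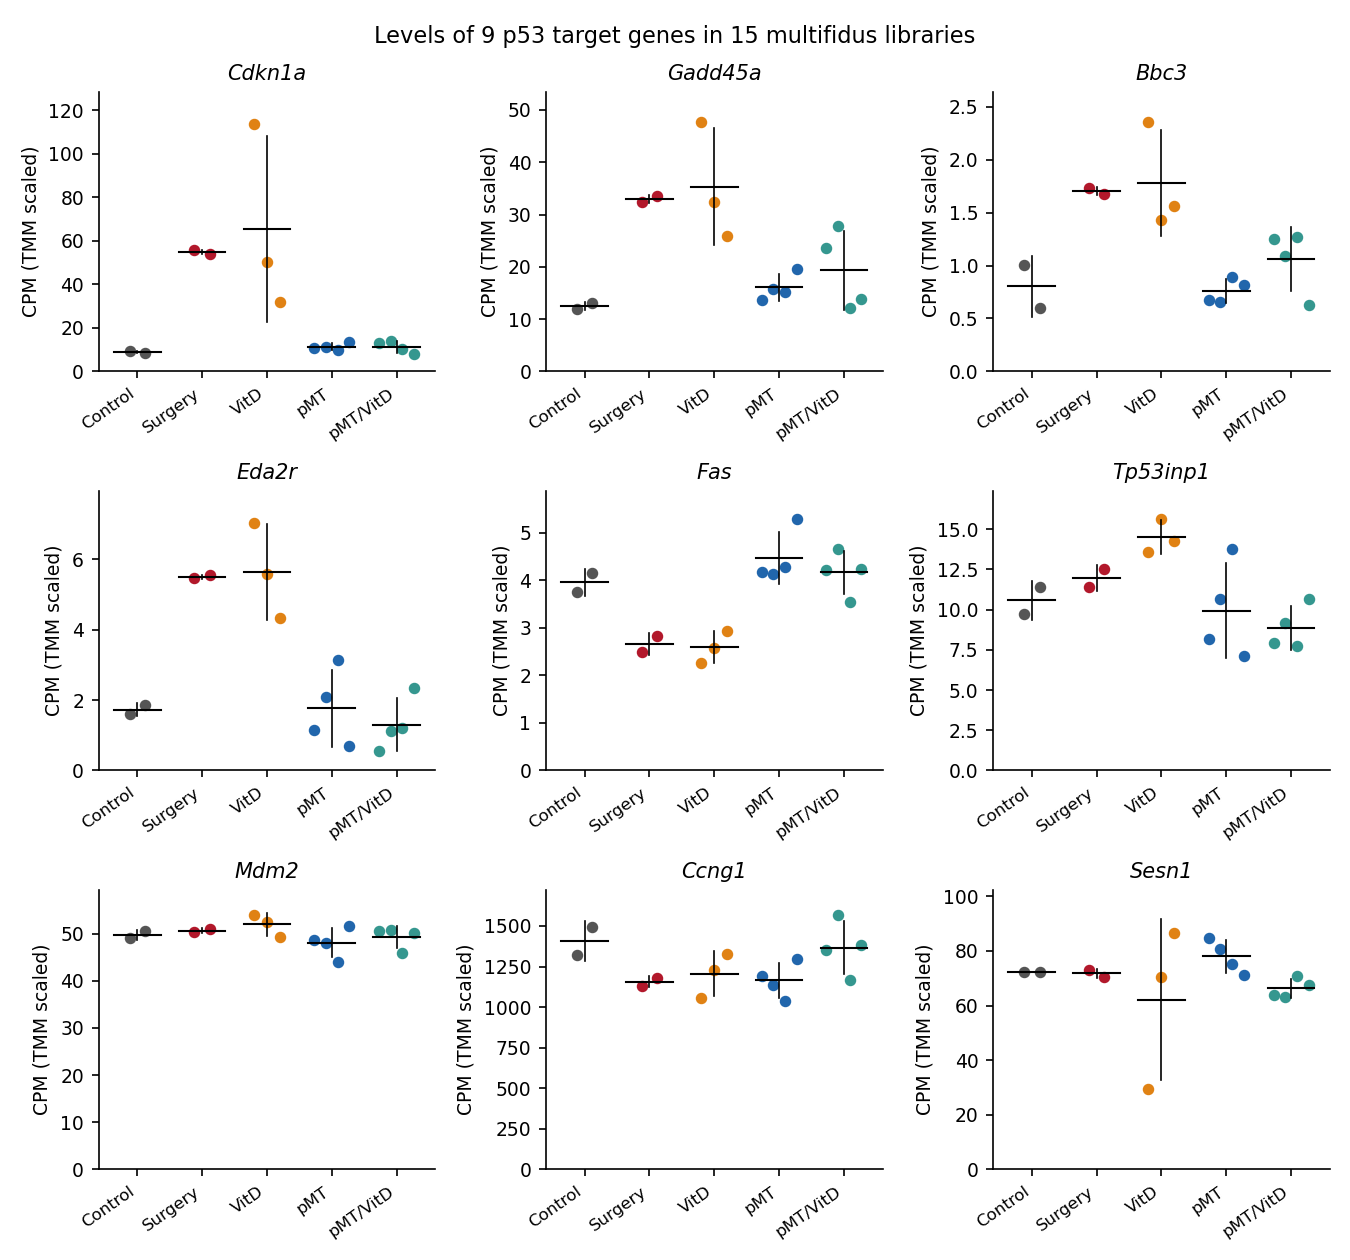
Levels of the 9 genes in each library, in CPM scaled by the trimmed mean of M values (y axis from 0, its own range per gene), by group (x axis). Points are libraries in replicate order, horizontal lines are group means and vertical lines are ± 1 SD over the 2 to 4 libraries. Cdkn1a, Gadd45a, Bbc3 and Eda2r sit high in Surgery and VitD, Fas sits low there, and Mdm2 stays between 44.0 and 54.0 CPM throughout.

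Cdkn1a had the widest range of the members. It stood at 9.23 and 8.62 CPM in Control, and at 55.6 and 54.1 CPM in Surgery. In VitD it reached 114, 50.3 and 32.1 CPM. With pMT it was 10.6, 11.0, 9.90 and 13.7 CPM, and with pMT/VitD 13.3, 14.0, 10.5 and 7.96 CPM. All Surgery and VitD libraries were thus above all others, and the lowest of them, VitD 3, stood at 32.1 CPM against 14.0 CPM in the highest pMT/VitD library. The order of group means was Control (8.92 ± 0.43 CPM, SD, n = 2), pMT (11.3 ± 1.67, n = 4), pMT/VitD (11.4 ± 2.76, n = 4), Surgery (54.8 ± 1.09, n = 2) and VitD (65.3 ± 42.8, n = 3). Among neighbours in this order, pMT and pMT/VitD overlapped, as did Surgery and VitD. The step from Control to pMT did not overlap but was small (9.23 CPM in the highest Control library and 9.90 CPM in the lowest pMT library), and the lowest pMT/VitD library, at 7.96 CPM, was below both Control libraries.

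Gadd45a followed the same order at smaller amplitude. Its level was 11.9 and 13.0 CPM in Control, 32.4 and 33.6 CPM in Surgery and 47.7, 32.4 and 25.8 CPM in VitD. With pMT it was 13.7, 15.8, 15.2 and 19.6 CPM. The pMT/VitD libraries were divided, at 23.5, 27.9, 12.1 and 13.8 CPM, and the highest of these lay above the lowest VitD library.

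Bbc3 and Eda2r, the PUMA and EDA2R genes of the cell death arm, were low but shared the split. Bbc3 was 1.01 and 0.600 CPM in Control, 1.73 and 1.68 CPM in Surgery, and 2.35, 1.43 and 1.56 CPM in VitD. It was 0.674, 0.653, 0.896 and 0.814 CPM with pMT and 1.25, 1.09, 1.27 and 0.623 CPM with pMT/VitD, below every Surgery and VitD library. Eda2r was 1.59 and 1.85 CPM in Control, 5.47 and 5.55 CPM in Surgery, and 7.03, 5.57 and 4.32 CPM in VitD. It was 1.15, 2.09, 3.14 and 0.684 CPM with pMT and 0.540, 1.11, 1.20 and 2.34 CPM with pMT/VitD. For Eda2r, too, no pMT-treated library reached the lowest untreated or VitD-treated operated library. The replicate 4 library was the lowest of its group with pMT and the highest with pMT/VitD.

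Fas, the death receptor for Fas ligand, ran the other way. It was 3.75 and 4.15 CPM in Control, 2.49 and 2.82 CPM in Surgery and 2.26, 2.58 and 2.93 CPM in VitD. It was 4.18, 4.13, 4.29 and 5.29 CPM with pMT and 4.21, 4.65, 3.55 and 4.24 CPM with pMT/VitD. Every library of the Surgery and VitD groups was therefore below every other library.

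Tp53inp1 was highest in VitD, at 13.6, 15.7 and 14.3 CPM, against 9.73 and 11.4 CPM in Control and 11.4 and 12.5 CPM in Surgery. With pMT it varied from 7.14 to 13.8 CPM and with pMT/VitD from 7.74 to 10.7 CPM. Mdm2 and Ccng1, the feedback arm, had narrow ranges. Mdm2 lay between 44.0 and 54.0 CPM in all 15 libraries with overlapping groups, and Ccng1 lay between 1037 and 1567 CPM. Sesn1 was within 63.3 to 86.6 CPM in 14 libraries and at 29.5 CPM in VitD 1, the library with the highest Cdkn1a, Gadd45a, Bbc3 and Eda2r.

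Whether the set differed between injured, VitD-treated muscle and uninjured muscle was asked in VitD against Control. Neither group holds a Surgery or pMT library, so all 9 members were tested. The Surgery and pMT libraries still share the fit, through its filter, scaling and estimate of spread, so the p-values are not fully separate from them. Cdkn1a was 7.32-fold higher with VitD (log2 2.87 ± 0.42 SE, adjusted p = 0.00334, edgeR's quasi-likelihood test with Benjamini-Hochberg adjustment over 17201 genes). Gadd45a was 2.83-fold higher (log2 1.50 ± 0.33, adjusted p = 0.0158) and Bbc3 2.21-fold higher (log2 1.15 ± 0.33, adjusted p = 0.0467). Fas was lower, at 0.654 of the Control level (log2 -0.61 ± 0.17, adjusted p = 0.0380). Thus 4 of the 9 members passed the threshold of 0.05, 3 higher and 1 lower, where 8.67% of all genes passed it (5.48% higher and 3.2% lower). Eda2r was 3.28-fold higher with a wide interval (log2 0.53 to 2.90, adjusted p = 0.0684) and did not pass. The 2 groups did not overlap for 6 of the 9 members, but with so few libraries the same was true of 52.1% of all genes. The median change of the 9 members was 0.46 on the log2 scale, against -0.01 for all genes.

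The other 4 members did not pass in VitD against Control. Tp53inp1 differed by 0.46 on the log2 scale (95% confidence interval -0.03 to 0.94, adjusted p = 0.221). For Mdm2 the difference was 0.06 (-0.15 to 0.27), the narrowest interval of the 9. For Ccng1 it was -0.22 (-0.57 to 0.12) and for Sesn1 -0.22 (-0.82 to 0.39). Sesn1 and Ccng1 changed sign with the scaling (0.04 and 0.06 when libraries were scaled by total count alone, which moved the median of all genes by 0.27), and Sesn1 was at 0.12 without VitD 1.

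These calls leaned on few libraries. Without VitD 1, when 3.58% of all genes passed, Cdkn1a alone of the members still did (log2 2.21, adjusted p = 0.00132), while Gadd45a (1.22, adjusted p = 0.0544), Bbc3 (0.89, adjusted p = 0.173) and Fas (-0.52, adjusted p = 0.130) did not. None passed when only the VitD and Control libraries were fitted (Cdkn1a adjusted p = 0.0690), where 0.579% of all genes did. Cdkn1a was at log2 2.92 without Control 1 and 2.82 without Control 2, each set against a lone Control library. Such fits hold no spread within Control, so they cannot show that its call would survive the loss of either Control library. Only 2 members passed without VitD 2 (4.51% of all genes), without pMT 1 (6.76%) or without pMT 2 (6.12%). The pMT libraries are in neither group compared and share only the fit. Eda2r passed without pMT 3, pMT 4 or pMT/VitD 4 (adjusted p = 0.0458, 0.0339 and 0.0378). With VitD 1 and both replicate 4 libraries left out, Cdkn1a, Gadd45a, Bbc3 and Eda2r passed (Eda2r log2 1.55, adjusted p = 0.0242, with 10.1% of all genes passing) and Fas did not (-0.50, adjusted p = 0.0702).

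**Figure D2:**
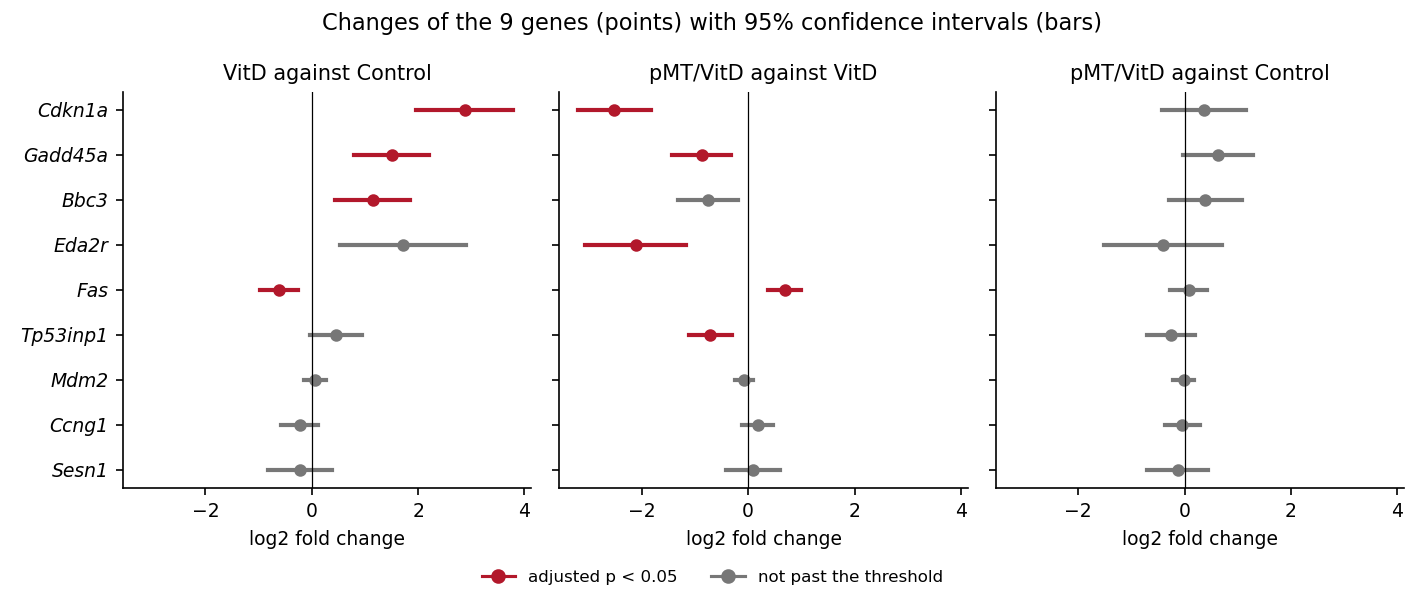
Log2 fold change (x axis) of each of the 9 genes (y axis) in the 3 comparisons whose groups are neither Surgery nor pMT. Points are estimates from the fit over all 15 libraries, bars are 95% confidence intervals, and red marks adjusted p under 0.05: 4 genes in VitD against Control, 5 in pMT/VitD against VitD and 0 in pMT/VitD against Control.

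The contrast of pMT/VitD with VitD asks what adding the mitochondria to VitD changed, and again compares no Surgery or pMT library, although these share the fit. It shares the VitD libraries with the comparison above, so the values of each stand side by side and do not support each other. Cdkn1a was 5.72-fold lower with pMT/VitD than with VitD (log2 -2.52 ± 0.32 SE, adjusted p = 0.000330). Eda2r was 4.33-fold lower (log2 -2.12 ± 0.45, adjusted p = 0.00504), Gadd45a 1.83-fold lower (log2 -0.87 ± 0.26, adjusted p = 0.0276) and Tp53inp1 1.64-fold lower (log2 -0.71 ± 0.19, adjusted p = 0.0154). Fas was 1.61-fold higher (log2 0.69 ± 0.14, adjusted p = 0.00486). So 5 of 9 members passed, 4 lower and 1 higher, where 21.9% of all genes passed (12.2% lower and 9.66% higher). The groups did not overlap for 5 of 9 members, against 28.6% of all genes. The median change of the members was -0.71, against 0 for all genes.

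Bbc3 differed by -0.75 between pMT/VitD and VitD (95% confidence interval -1.32 to -0.18, adjusted p = 0.0559) and did not pass. Mdm2 (-0.08, interval -0.25 to 0.10), Ccng1 (0.18, -0.11 to 0.47) and Sesn1 (0.09, -0.41 to 0.60) did not pass either. Cdkn1a and Eda2r passed under every one of the 26 alternative settings tried, with Cdkn1a between -2.91 and -1.71 and Eda2r between -2.58 and -1.86. Gadd45a did not pass without VitD 1 (-0.59, adjusted p = 0.169) or with VitD 1 and both replicate 4 libraries left out (-0.46, adjusted p = 0.215), nor without VitD 2, pMT/VitD 3 or pMT/VitD 4 (adjusted p = 0.0520, 0.0632 and 0.0533). Tp53inp1 did not pass without VitD 2 (-0.65, adjusted p = 0.0581). Fas did not pass when libraries were scaled by total count alone (0.35, adjusted p = 0.0661). That scaling moved the median of all genes by -0.34, and Mdm2 then passed at -0.42 (adjusted p = 0.00632). Bbc3 passed under that scaling as well (-1.13, adjusted p = 0.00577), with DESeq2 (adjusted p = 0.0433), with at least 10 counts in every library (adjusted p = 0.0478) and with the length trend removed (adjusted p = 0.0254).

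In pMT/VitD against Control, 0 of 9 members passed, as did 0 of all 17201 genes (0%). At an unadjusted p under 0.05 the count was 0 of 9 members and 496 genes, or 2.88%, and DESeq2 also called 0 of 9 members. Without pMT/VitD 4, 13.3% of all genes had an unadjusted p under 0.05. With VitD 1 and both replicate 4 libraries left out, 951 genes (5.59%) passed and still 0 of 9 members, with Cdkn1a at 0.52 (adjusted p = 0.0808), Gadd45a at 0.78 (adjusted p = 0.107) and Eda2r at -0.83 (adjusted p = 0.197). The intervals show how large a remaining difference could be. Cdkn1a differed by 0.36 on the log2 scale (-0.43 to 1.15), Gadd45a by 0.63 (-0.02 to 1.29), Bbc3 by 0.39 (-0.29 to 1.08), Eda2r by -0.40 (-1.51 to 0.70) and Fas by 0.08 (-0.27 to 0.42). A p above the threshold does not show that these levels were equal, and the interval was widest for Eda2r.

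Surgery against Control asks what the operation alone changed. Cdkn1a was 6.14-fold higher in Surgery (log2 2.62 ± 0.44 SE) and Fas was at 0.673 of the Control level (log2 -0.57 ± 0.19), both given without a test. Of the other 7 members, 0 passed, where 1.55% of all genes did, and 3 of the 7 had an unadjusted p under 0.05 (17% of all genes). These were Gadd45a (log2 1.40 ± 0.35, adjusted p = 0.0585), Bbc3 (1.08 ± 0.36, adjusted p = 0.134) and Eda2r (1.68 ± 0.59, adjusted p = 0.155). Mdm2 differed by 0.03 (95% confidence interval -0.20 to 0.25). With both replicate 4 libraries left out, 2 of the 7 passed, as did 4.17% of all genes.

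VitD against Surgery asks what VitD alone changed after the operation. Cdkn1a differed by 0.25 ± 0.37 and Fas by -0.04 ± 0.17 on the log2 scale. Of the other 7 members 0 passed, as did 0 of all genes (0%, and 0.808% at an unadjusted p under 0.05). The intervals ran from -0.56 to 0.76 for Gadd45a, from -0.60 to 0.73 for Bbc3 and from -1.05 to 1.12 for Eda2r. They give the changes compatible with these libraries and are not limits of detection, since larger changes can also miss the adjusted threshold.

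The comparison of pMT with Surgery is described only, since its calls were known. Cdkn1a was 4.84-fold lower with pMT (log2 -2.28 ± 0.34 SE) and Eda2r 3.09-fold lower (-1.63 ± 0.47). Bbc3 was 2.25-fold lower (-1.17 ± 0.30), Gadd45a 2.05-fold lower (-1.04 ± 0.29) and Fas 1.68-fold higher (0.75 ± 0.17). Tp53inp1 (-0.27 ± 0.21), Mdm2 (-0.08 ± 0.09), Ccng1 (0.01 ± 0.15) and Sesn1 (0.12 ± 0.27) differed by little more than 1 SE or less. In this comparison 1.94% of all genes had an adjusted p under 0.05.

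The remaining comparisons with pMT-treated muscle share libraries with those above, so their values are not separate evidence. In pMT/VitD against Surgery, Cdkn1a was 4.80-fold lower (log2 -2.26 ± 0.34) and Fas 1.57-fold higher (0.65 ± 0.17), without a test. Eda2r was 4.23-fold lower (-2.08 ± 0.48, adjusted p = 0.0213) and was the 1 of the other 7 members that passed, where 7.44% of all genes did (5.03% lower). It did not pass without Surgery 1, Surgery 2 or pMT/VitD 2 (adjusted p = 0.144, 0.151 and 0.0595). In pMT against VitD, 3 of 7 members passed, all lower, where 8.1% of all genes did (5.45% lower). These were Bbc3 (-1.23 ± 0.27, adjusted p = 0.0123), Gadd45a (-1.14 ± 0.26, adjusted p = 0.0158) and Eda2r (-1.66 ± 0.43, adjusted p = 0.0305), and none of them passed without VitD 1. Only Bbc3 passed without pMT 1, and Eda2r did not pass without pMT 2 or VitD 2 either (adjusted p = 0.0639 and 0.0759). Cdkn1a was 5.77-fold lower there (-2.53 ± 0.32).

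Adding VitD to pMT was asked by pMT/VitD against pMT, where 0 of 7 members and 0 of all genes (0%, 10.1% at an unadjusted p under 0.05) passed. Cdkn1a differed by 0.01 ± 0.30, Fas by -0.10 ± 0.13, Gadd45a by 0.27 ± 0.24 and Eda2r by -0.45 ± 0.43. With both replicate 4 libraries left out, Eda2r was lower with pMT/VitD than with pMT (-1.16, adjusted p = 0.0375), the 1 of 7 members that passed, where 3136 genes or 18.3% of all did. In pMT against Control 0 of 7 members and 0 of all genes (0%, 3.07% at an unadjusted p under 0.05) passed, with Cdkn1a at 0.34 ± 0.37 and Gadd45a at 0.36 ± 0.30. Whether the effect of VitD differed with and without pMT was tested as an interaction, in which 0 of the other 7 members and 0 of all genes passed (888 genes at an unadjusted p under 0.05). The interaction was -0.24 ± 0.48 for Cdkn1a, and the member with the lowest adjusted p was Tp53inp1 (-0.44 ± 0.28, adjusted p = 0.899).

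Genes that act on the p53 pathway from above were read as a list beside the members. This list and those below were chosen with earlier results of these data known, so their counts are descriptions and not separate evidence. Of 14 regulator genes, 1 was lower in VitD against Control (7.14%, where 8.67% of all genes passed) and 3 passed in pMT/VitD against VitD, 2 higher and 1 lower (21.4%, where 21.9% of all genes passed). Rchy1, the most abundant of them and like Mdm2 a ubiquitin ligase for p53, was lower with VitD than in Control (-0.63 ± 0.12, adjusted p = 0.00850) and higher with pMT/VitD than with VitD (0.71 ± 0.10, adjusted p = 0.000558). Rfwd2, the gene of the ligase COP1, was also higher with pMT/VitD (0.43 ± 0.14, adjusted p = 0.0415), and the checkpoint kinase gene Chek1 was lower (-1.12 ± 0.35, adjusted p = 0.0362). The third most abundant regulator, the deubiquitinase gene Usp7, differed by -0.24 and 0.10. The shares of regulators that passed were close to those of all genes.

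A list of 40 further p53 targets was read in the same fit, of which 39 were in the table and 38 passed the filter. In VitD against Control, 3 of 38 passed, 1 higher and 2 lower (7.89%, against 8.67% of all genes). The tetraspanin gene Cd82 was higher (0.82 ± 0.15, adjusted p = 0.00774), whereas Ei24 (-0.50 ± 0.12, adjusted p = 0.0209) and Tigar, a regulator of glycolysis (-0.55 ± 0.13, adjusted p = 0.0211), were lower. In pMT/VitD against VitD, 7 of 38 passed, 2 higher and 5 lower (18.4%, against 21.9%). Those lower were the death receptor gene Tnfrsf10b (-1.66 ± 0.36), the apoptosome gene Apaf1 (-0.62 ± 0.11), Dram1 of the autophagy arm (-0.85 ± 0.17), Cd82 (-0.68 ± 0.12) and Zmat3 (-0.46 ± 0.13), and those higher were Ei24 (0.48 ± 0.10) and Tigar (0.54 ± 0.11). Of the most abundant targets besides Ei24, Rps27l differed by -0.02 and 0.44 and Phlda3 by 0.40 and -0.01 in the 2 comparisons, without passing. Among the 7 DNA repair targets, 0 passed in either comparison, and Bax, the classical pro-apoptotic target, differed by 0.25 ± 0.27 and 0.17 ± 0.22. The median of the list was 0.17 in VitD against Control and -0.17 in pMT/VitD against VitD, against -0.01 and 0 for all genes. In pMT/VitD against Control 0 of the 38 passed.

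Paralogs of the members were read in the same way. Of 10 paralogs, 2 passed in VitD against Control, both higher (20%, where 8.67% of all genes passed). These were Sesn3 (0.85 ± 0.15, adjusted p = 0.00581) and Ccng2 (0.40 ± 0.12, adjusted p = 0.0469), although Sesn1 and Ccng1 did not pass. In pMT/VitD against VitD, 3 of 10 passed (30%, where 21.9% of all genes passed). Sesn3 (-1.10 ± 0.12) and the p57 gene Cdkn1c (-0.70 ± 0.21, adjusted p = 0.0293) were lower, and Gadd45g (1.11 ± 0.32, adjusted p = 0.0225) was higher, opposite to Gadd45a. Cdkn1b, the gene of p27, differed by -0.07 and -0.13, and Tp53inp2, the most abundant paralog, by -0.53 and 0.36, without passing. Sesn2 is listed both here and among the further targets, and Mdm4 both here and among the regulators, and neither passed.

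**Figure D3:**
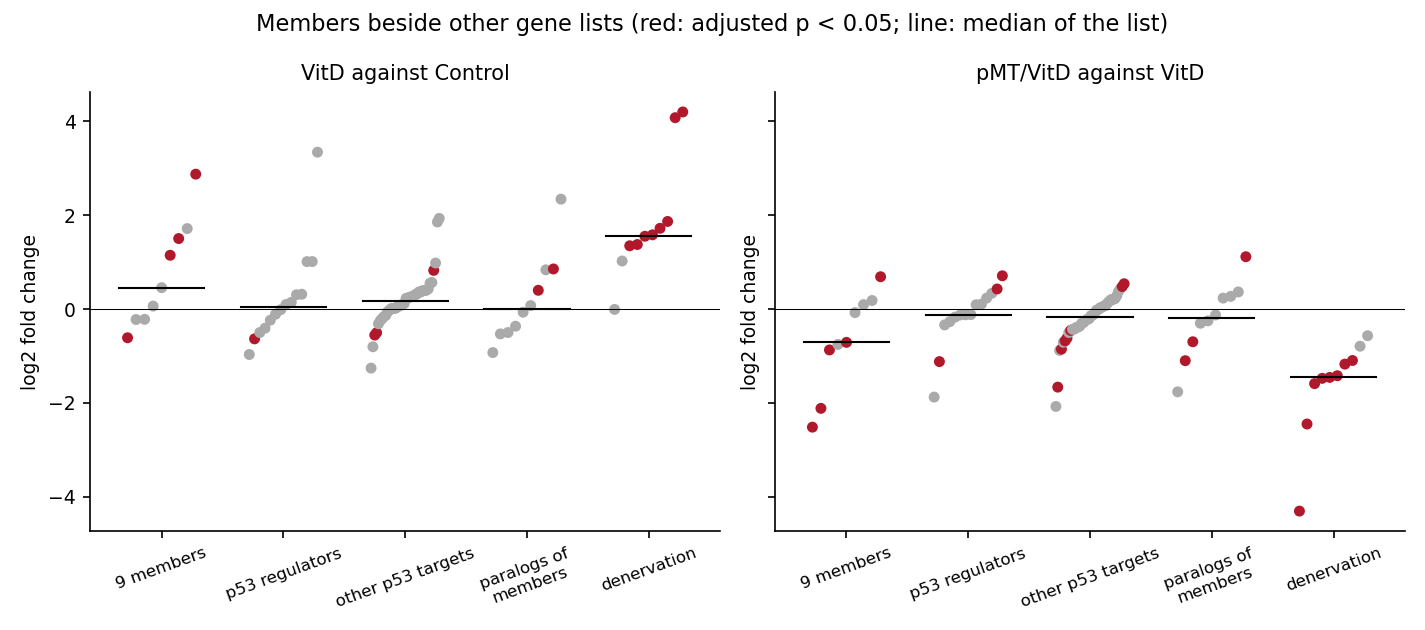
Log2 fold change (y axis) of each gene of 5 lists (x axis) in VitD against Control (left) and pMT/VitD against VitD (right). Points are genes, red where adjusted p was under 0.05, and horizontal lines are list medians: 0.46 and -0.71 for the 9 members, 0.17 and -0.17 for the further p53 targets, and 1.56 and -1.44 for the denervation genes.

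Many markers of denervation and of some other cell types were higher in VitD against Control and lower in pMT/VitD against VitD, as Cdkn1a and Gadd45a were. Fas went the other way, and Mdm2, Ccng1 and Sesn1 passed in neither. Of 10 denervation genes, among them Myh8, Myh3 and Myog, 8 were higher in VitD against Control and 8 lower in pMT/VitD against VitD. Beside these and the counts that follow, 5.48% of all genes were higher in the first comparison and 12.2% lower in the second. Musk, the muscle-specific kinase gene, and Myh8, the most abundant gene of the list, passed in neither, with Myh8 at -0.01 (adjusted p = 0.994) and -0.57 (adjusted p = 0.379). The list's summed level was 76.5 to 80.2 TPM in Control, 225 to 227 in Surgery, 155 to 453 in VitD, 44.9 to 147 with pMT and 47.5 to 85.1 with pMT/VitD. This sum and those that follow lack the scaling by the trimmed mean of M values, so part of a difference between groups can come from the scale. Mdm2, nearly level in CPM, averaged 19.5 TPM in Control, 24.5 in Surgery, 25.0 in VitD, 20.9 with pMT and 17.6 with pMT/VitD. Of 10 macrophage markers, led by Lyz2, C1qa and C1qc, 6 were higher in the first comparison and 10 lower in the second, with summed levels of 253 to 274, 646 to 655, 526 to 934, 184 to 368 and 179 to 323 TPM in the same order of groups. Of 8 proliferating cell markers, led by Cdk1, Birc5 and Ccna2, 3 were higher in the first and 8 lower in the second (6.04 to 6.50, 13.2 to 13.9, 11.2 to 23.8, 7.20 to 11.1 and 5.01 to 5.99 TPM). Of 5 fibroblast markers, led by Dcn, Col3a1 and Col1a1, 3 were higher in the first and 4 lower in the second (958 to 1004, 1774 to 1805, 1579 to 2742, 781 to 1374 and 638 to 1136 TPM). None of these markers was at 0 in any library. In each of these 4 lists VitD 1 was the highest and VitD 3 the lowest VitD library, the order seen for Cdkn1a, Gadd45a and Eda2r, and the same order held for the summed lymphocyte, endothelial, satellite cell and adipocyte markers.

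Fewer markers passed in the remaining lists, beside 8.67% of all genes in the first comparison and 21.9% in the second. Of 8 lymphocyte markers tested, led by Cd4, Cd8a and Cd3g, only Cd4 passed, higher in the first comparison and lower in the second, although the list's median change (1.54 and -1.20 on the log2 scale) was larger than that of the macrophage list (0.88 and -1.19). The lymphocyte markers had sums of 15.9 to 17.0, 35.5 to 36.9, 30.6 to 41.8, 11.3 to 22.8 and 8.15 to 20.2 TPM. Endothelial (Pecam1, Cdh5, Tek), satellite cell (Myod1, Pax7, Myf5) and adipocyte (Fabp4, Cfd, Adipoq) lists had 0 of 5, 0 of 3 and 1 of 5 markers passing in VitD against Control and 1 in each in pMT/VitD against VitD. Muscle fibre markers had 0 of 10 and 3 of 10, the latter higher, as were 9.66% of all genes. They summed to between 148724 and 192025 TPM. What part any of these cell types or denervated fibres had in the changes of Cdkn1a and the other members was not tested.

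**Figure D4:**
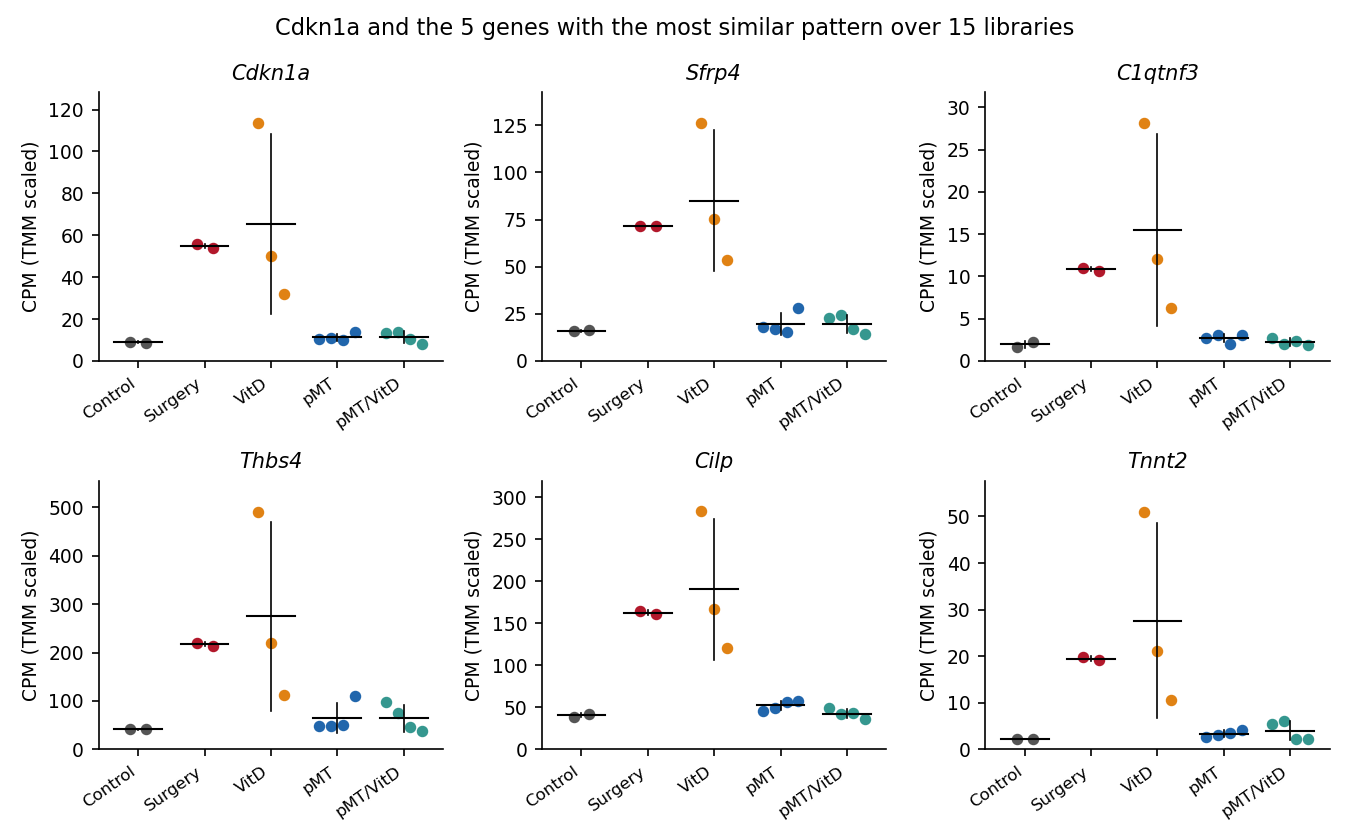
Levels of Cdkn1a and of the 5 genes whose pattern was most like it, in CPM scaled by the trimmed mean of M values (y axis from 0), by group (x axis). Points are libraries in replicate order, horizontal lines are group means and vertical lines are ± 1 SD: in all 6 panels the Surgery and VitD libraries sit high, with VitD 1 the highest of the 15.

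The genes whose pattern over the 15 libraries was most like that of Cdkn1a were found by the SD of the log2 ratio of their CPM to its CPM, among 11398 genes of sufficient level. The closest was Sfrp4, a secreted Wnt antagonist (SD 0.228), followed by the secreted protein gene C1qtnf3 (0.243), the matrix genes Thbs4 (0.319) and Cilp (0.322), and Tnnt2 (0.335), a troponin of heart and immature skeletal muscle. Sfrp4 averaged 16.1 CPM in Control, 71.5 in Surgery, 85.0 in VitD, 19.6 with pMT and 19.7 with pMT/VitD. Tnnt2 averaged 2.27, 19.5, 27.6, 3.37 and 4.03 CPM in the same order. On the scale of log2(TPM + 1), 4 of these 5 remained among the closest 5 genes. Of the other members, Gadd45a ranked 83, Eda2r 266 and Tp53inp1 1456 of the 11398 genes, whereas Mdm2 ranked 3398, Ccng1 7019, Sesn1 10049 and Fas 10857, and Bbc3 was below the level of the search. This is a description of the same 15 libraries and carries no test.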

How the data were processed

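Total RNA of multifidus muscle was sequenced as paired-end reads. Per the labels, the authors used Trimmomatic 0.38 for trimming, HISAT2 2.1.0 and the rn6 genome for alignment, SAMtools 1.9, and StringTie 2.1.3b with RefSeq genes for quantification. The handling of strand and of multi-mapped reads is not given in the sources used here. The deposited table holds raw read counts per gene, which were used for all tests, and TPM, used for levels between genes and for summed lists. Deposited FPKM values were not used.

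Counts of all 15 libraries were fitted together in edgeR 4.0.16 (R 4.3.3) with TMM scaling, filterByExpr and robust quasi-likelihood F-tests, and p-values were adjusted by Benjamini-Hochberg over 17201 genes with a threshold of 0.05. Levels of single genes compared between libraries are CPM on TMM-scaled totals. Likeness to Cdkn1a used log2 CPM with a prior count of 2 and a minimum mean of 1. The members and gene lists were chosen with earlier results of these data known. Genes named are all members, the 3 most abundant genes of each list, genes of the p53 and paralog lists that passed in a comparison without Surgery or pMT libraries (at most 6 per list and comparison), and the 5 genes most like Cdkn1a. Bax, Mdm4, Sesn2 and Cdkn1b were added after their values were seen, and some list genes are not reported here. Sco2 was not found by symbol, and of 2 rows named Triap1 the one with more counts was used. The code was tested on simulated data. Results were recomputed with DESeq2 1.42.0, with edgeR's exactTest, after RLE and plain library-size scaling, under other filters, in fits of 2 groups, with a replicate block, with a gene-length offset and with libraries left out.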

Additional observations from a re-analysis of the deposited data

Results flagged for a closer look

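In groups of 4 libraries, the highest or lowest value was set against the spread of the others, and 2 of 18 sets of member values stood out, where chance alone gives 0.9. Mdm2 was at 45.8 CPM in pMT/VitD 3, while the other pMT/VitD libraries lay between 50.1 and 50.8 CPM, so the gap took up 0.849 of the range, past Dixon's 95% critical value for 4 libraries. Fas was at 5.29 CPM in pMT 4, the library that stood apart from its group, while the other pMT libraries lay between 4.13 and 4.29 CPM, and the gap took up 0.867 of the range. Chance flags about 1 in 20 groups.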

How the results depend on the processing

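Of 13 member calls with a test, 2 held under all 26 alternatives, Cdkn1a and Eda2r in pMT/VitD against VitD. Libraries with the same replicate number had no common pattern: 24 same-number pairs correlated at -0.904 to 0.397, 7 of them over 0.1. These correlations are of differences from group means, which mirror each other in groups of 2 libraries. They therefore cannot show that pairing was absent. With the replicate block, members called went from 4 to 2 in VitD against Control (8.67 to 7.55% of all genes). In pMT/VitD against Surgery they went from 1 to 0 (7.44 to 2.03%). In VitD against Control, 2 members were called with any count above 0 (4.82%) and 0 with only the 2 groups (0.579%). In Surgery against Control, where 0 of 7 were called, the count was 2 with library size only (5.8% of all genes called), 1 with DESeq2 (5.82%), 4 with exactTest (36.3%), 4 with only the 2 groups (32.4%) and 1 with the length trend removed (3.16%), against 1.55% as reported. It was 2 without both replicate 4 libraries (4.17%) and 3 without VitD 1 as well (14.2%), a setting chosen after seeing the data. In pMT/VitD against Surgery these were 4 (library size, 18.9%), 2 (length, 9.76%), 2 (20.1%) and 2 (28.2%), and in pMT/VitD against pMT 1 (18.3%) and 3 (26.8%) for the last settings. Leaving out each VitD, pMT or pMT/VitD library gave 1 to 5 calls in VitD against Control, with 3.58 to 14% of all genes called. It gave 0 to 1 in Surgery against Control (0.716 to 5.98%) and 0 to 4 in pMT against VitD (2.92 to 12.2%). In pMT/VitD against Surgery it gave 0 to 1 (3.48 to 12.8%) and in pMT/VitD against VitD 3 to 5 (10.9 to 26.5%). Fits that leave a lone Control or Surgery library assume that it varies like the other groups, and are not counted here. Signs turned for uncalled values. With library size only, VitD against Control gave 0.0557 for Ccng1 and 0.0420 for Sesn1, and pMT/VitD against VitD gave -0.16 and -0.23. Without VitD 1 and both replicate 4 libraries Sesn1 was at 0.14 and -0.25, and leaving out single libraries gave -0.54 to 0.12 and -0.24 to 0.41. Mdm2 was at 0.0041 in pMT/VitD against VitD with the length trend removed. Of the further p53 targets, 6 passed in VitD against Control and 13 in pMT/VitD against VitD with library size only (16.2% and 33.5% of all genes), and 6, 14 and, in pMT/VitD against Control, 1 without both replicate 4 libraries (15.1%, 32% and 0.064%). The cause was not tested.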
